A study of Mus musculus with 8 samples.

Results

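The enzymes Hmgcs1, Mvd, Idi1, Fdps, Fdft1, Sqle and Lss of the cholesterol synthesis pathway and the sterol-regulated protein Insig1 were followed in reprogramming mouse cardiac fibroblasts that had been kept either in the infarcted heart or in culture. The members were chosen by gene symbol, with earlier results of these data known. All 8 were found among the 54532 genes of the expression table. The study sequenced 8 RNA libraries in 4 groups of 2 to compare the same infected cells in both surroundings and to look for what holds back their conversion to cardiomyocyte-like cells in the heart. The cells, called MICFs, were isolated as cardiac fibroblasts from mouse hearts 6 days after myocardial infarction. By the study's own staining, such isolates were mostly fibroblasts but also held macrophages and a few endothelial cells. A step to deplete CD45+ cells is described for other experiments and is not stated for these libraries. The share of each cell type in them was not stated. In all 4 groups they carried doxycycline-inducible (Tet-On) lentiviruses for Mef2c, Gata4 and Tbx5 (MGT), Myocd and Sall4, together with eGFP, and doxycycline was given throughout. For the in vivo 1w and in vivo 2w groups, MICFs were injected into hearts of C57BL/6 mice whose left anterior descending artery had just been ligated, and the hosts drank doxycycline and received tacrolimus, methylprednisolone and mycophenolate mofetil, 3 immunosuppressants, every day. For the in vitro 1w and in vitro 2w groups, the cells stayed in dishes in a serum-containing reprogramming medium, which by the study's general methods also held SB431542, a TGF-β receptor inhibitor, and baricitinib, a JAK inhibitor. The eGFP+ cells were collected on day 7 (1w) or day 14 (2w), from digested hearts in the in vivo groups. No group lacked the reprogramming factors, the host immunosuppressants were given to the in vivo groups only, and the number of animals or dishes behind a library was not stated. The p-values therefore measure only the spread between these libraries, which may be technical.

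Cells make cholesterol from acetyl-CoA. The mevalonate steps (among them Hmgcs1, Mvk, Pmvk and Mvd) build an isoprene unit, Idi1 isomerizes it into the starter unit, and Fdps joins such units into farnesyl pyrophosphate. Fdft1 commits farnesyl pyrophosphate to squalene, and Sqle and Lss turn squalene into lanosterol, from which the later enzymes make cholesterol. When sterols in the endoplasmic reticulum are low, the escort protein SCAP carries the transcription factor SREBP (encoded by Srebf1 and Srebf2) to the Golgi, where it is cut and released to switch on these genes. Insig1 holds the SCAP and SREBP pair back when sterols are plentiful and is itself an SREBP target, so its transcript is often read as a gauge of the pathway.

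Promoter windows of 300 bases, from 250 bases before to 50 bases after the transcription start, were held for 5 of the 8 members (Hmgcs1, Mvd, Idi1, Lss and Insig1) in the RefSeq table for GRCm38.p6. The windows were searched on both strands for 3 short motifs: TCACNCCAC, a form of the sterol regulatory element that SREBP binds, CCAAT, which NF-Y binds, and GGGCGG, which Sp1 binds. The windows of Hmgcs1, Insig1 and Mvd are shown because they span the members by role, from the entry enzyme to the regulator. They are written 5′ to 3′ on the strand of the gene, and capitals mark the motif matches, with reverse-strand matches in their reverse-complement letters.
Hmgcs1, chr13:119690101-119690400 (+ strand): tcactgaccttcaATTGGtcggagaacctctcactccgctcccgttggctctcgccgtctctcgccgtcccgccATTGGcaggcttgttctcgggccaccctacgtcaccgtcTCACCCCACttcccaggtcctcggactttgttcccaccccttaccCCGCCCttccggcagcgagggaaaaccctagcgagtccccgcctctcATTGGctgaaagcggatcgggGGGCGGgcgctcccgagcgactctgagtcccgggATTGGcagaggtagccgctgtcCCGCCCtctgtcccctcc
Insig1, chr5:28071162-28071461 (+ strand): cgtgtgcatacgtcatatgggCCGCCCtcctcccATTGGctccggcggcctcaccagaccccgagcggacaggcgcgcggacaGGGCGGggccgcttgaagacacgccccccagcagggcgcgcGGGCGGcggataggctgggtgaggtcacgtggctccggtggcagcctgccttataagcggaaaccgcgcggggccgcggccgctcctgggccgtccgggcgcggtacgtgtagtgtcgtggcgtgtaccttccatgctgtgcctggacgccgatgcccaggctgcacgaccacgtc
Mvd, chr8:122443373-122443672 (- strand): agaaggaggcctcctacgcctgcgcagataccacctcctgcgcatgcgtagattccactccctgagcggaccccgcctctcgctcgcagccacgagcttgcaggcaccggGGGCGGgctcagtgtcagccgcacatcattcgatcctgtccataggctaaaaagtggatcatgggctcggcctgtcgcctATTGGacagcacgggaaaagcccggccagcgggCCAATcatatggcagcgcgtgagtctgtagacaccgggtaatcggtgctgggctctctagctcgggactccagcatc
CCAAT and GGGCGG were each present in all 5 member windows. Over the 32851 windows of the RefSeq table, 37.4% held CCAAT and 35.7% held GGGCGG. TCACNCCAC was found in 1 of the 5 member windows, that of Hmgcs1, beginning 137 bases before the start, and in 1.24% of all windows. The 4 CCAAT matches of Hmgcs1 were all on the reverse strand, and 1 of the 2 in Mvd was on the forward strand. No match overlapped one of another motif in the 3 windows shown. A match is a description of these letters and was not tested for binding.

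Sequencing depth was similar across the libraries, with 12304242 to 14546904 fragments on genes. The values were FPKM (fragment counts divided by gene length and library size), so comparisons between genes depend on the gene lengths used. The induced factors were detected in every library, from 1.75 FPKM for Myocd to 73.2 FPKM for Gata4. The fibroblast gene Col1a1 ranged from 363 to 4709 FPKM and the leukocyte gene Ptprc from 3.33 to 7.26 FPKM. The deposited FPKM carry a scaling between libraries. With that scaling undone, the median log2 fold change of all genes between in vivo and in vitro went to -0.337 (1 week) and -0.325 (2 weeks), where it had been -0.006 and -0.003. The split of changed genes, 1224 higher against 796 lower for 1 week and 1417 against 1265 for 2 weeks, became 906 against 1558 and 1032 against 2087.

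All 8 members had a lower mean in the cells from the heart than in the cultured cells, at both times. At 1 week, 6 of them (Hmgcs1, Idi1, Fdft1, Sqle, Lss and Insig1) were lower in vivo past the test, with in vitro means 2.40 to 4.98 times the in vivo means. At 2 weeks, 3 of them (Sqle, Lss and Insig1) were lower past the test, with in vitro means 2.48 to 2.94 times the in vivo means. A gene was called changed when the limma test, run on all 15708 genes expressed at 0.5 FPKM or more in at least 2 libraries, gave a p below 0.01 after Benjamini-Hochberg adjustment and the log2 difference lay beyond 1 in either direction. By that rule 5.07% of all tested genes were lower in vivo at 1 week and 8.05% at 2 weeks. No member was higher in vivo at either time in limma, at an unadjusted p under 0.05 or in limma's voom, where 7.79% and 9.02% of all tested genes were higher. The unadjusted limit alone was met upward by 25.4% of all tested genes at 1 week (downward by 25.2%), and by 27.9% at 2 weeks (downward by 28.6%). The median log2 fold change of the 8 members was -1.61 at 1 week and -0.98 at 2 weeks, beside -0.006 and -0.003 for all tested genes. Fdps passed the expression filter only through the in vitro 1w libraries, so its inclusion in these counts was not independent of its difference. In bulk RNA, fewer cells expressing a gene and less RNA per cell cannot be told apart.

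**Figure D1:**
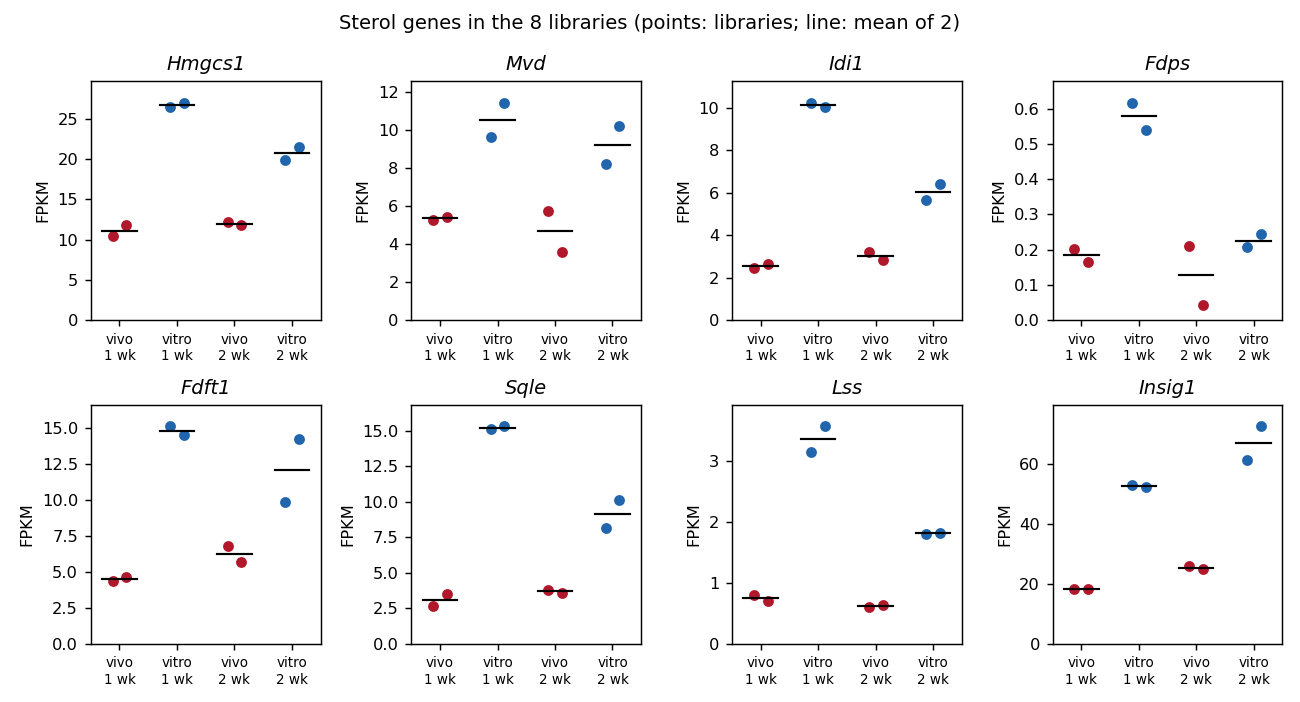
FPKM (vertical axis, starting at 0) of the 8 members in the 8 libraries, by group on the horizontal axis, with in vivo libraries in red, in vitro libraries in blue and a line at each mean of 2. Except for Fdps at 2 weeks, both in vivo points lie under both in vitro points of the same week in every panel, as for Insig1 with 18.2 to 18.3 FPKM against 52.4 to 52.9 FPKM at 1 week.

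The members kept one order of FPKM at both ends. Insig1 was the highest of the 8 in every library, from 18.2 to 72.4 FPKM, and Hmgcs1 was second in every library, from 10.5 to 27.0 FPKM. Lss was seventh, from 0.600 to 3.56 FPKM, and Fdps was last, from 0.0430 to 0.618 FPKM. Mvd, Idi1, Fdft1 and Sqle lay between, from 2.44 to 15.3 FPKM, and changed places between libraries. The gene lengths behind the FPKM were 10787 bases for Lss and 4208 for Fdps, beside longest coding transcripts of 4667 and 1382 bases. For Mvd they were 1859 and 1756 bases. The order therefore depends on the lengths used and was not tested as one of transcript abundance.

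Hmgcs1 (chr13:119690379-119708260, + strand, mm10), which makes HMG-CoA at the entry to the pathway, was listed at 10.5 and 11.8 FPKM in vivo and at 26.5 and 27.0 FPKM in vitro at 1 week. At 2 weeks it was at 12.1 and 11.9 FPKM in vivo and at 19.9 and 21.5 FPKM in vitro. The 4 in vivo libraries lay close together, and the in vitro pairs of both weeks lay above them without overlap. It was lower in vivo than in vitro by 1.26 on the log2 scale at 1 week (SE 0.08, limma adjusted p = 3.39e-05). At 2 weeks the log2 difference was -0.78 (SE 0.08, limma adjusted p = 2.23e-04), past the p threshold and short of the fold threshold.

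Mvd (chr8:122433601-122443422, - strand), which decarboxylates mevalonate pyrophosphate to isopentenyl pyrophosphate, was at 5.28 and 5.45 FPKM in vivo against 9.64 and 11.5 FPKM in vitro at 1 week. At 2 weeks the in vivo libraries held 5.77 and 3.604 FPKM and the in vitro libraries 8.21 and 10.2 FPKM. The ratio of the means was 1.97 at both times. It did not pass the test in either week, at a log2 difference of -0.96 (SE 0.22, limma adjusted p = 0.0119) and of -0.99 (SE 0.22, limma adjusted p = 0.00867). Without replicate 1 of in vivo 2w, the higher of that pair, the 2-week difference was -1.32 and passed. With the scaling between libraries undone, Mvd passed in both weeks (-1.295 and -1.315).

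Idi1 (chr13:8885501-8892451, + strand), the isomerase that supplies the starter unit for chain growth, was at 2.44 and 2.65 FPKM in vivo and at 10.3 and 10.1 FPKM in vitro at 1 week. At 2 weeks it was at 3.21 and 2.84 FPKM in vivo and at 5.65 and 6.42 FPKM in vitro. The in vitro mean was 3.99 times the in vivo mean at 1 week and 1.995 times at 2 weeks, with no overlap. It was lower in vivo by 1.96 on the log2 scale at 1 week (SE 0.11, limma adjusted p = 2.17e-05). The 2-week difference of -0.97 (SE 0.11, limma adjusted p = 3.73e-04) missed the fold threshold, which it passed without replicate 1 of in vivo 2w (-1.06) or replicate 1 of in vitro 2w (-1.06). A processed pseudogene, Gm13502, matched 684 bases of its transcript at 100% identity and was listed at 0 to 1.08 FPKM, so some Idi1 fragments could have been placed there.

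Fdps (chr3:89093588-89101959, - strand), farnesyl pyrophosphate synthase, was at 0.203 and 0.164 FPKM in vivo and at 0.618 and 0.541 FPKM in vitro at 1 week. After 2 weeks it was at 0.211 and 0.0430 FPKM in vivo and at 0.206 and 0.245 FPKM in vitro, and the groups overlapped. These values rested on 2 to 40 fragments per library. The log2 difference was -1.26 at 1 week (95% interval -2.44 to -0.08, limma adjusted p = 0.0827) and -0.62 at 2 weeks (95% interval -1.81 to 0.56, limma adjusted p = 0.336), and neither passed the test at this depth. The processed pseudogene Gm3571, which matched 1062 bases of the Fdps transcript at 98.9% identity, was listed above Fdps in every library, from 1.16 to 4.41 FPKM. How the counting shared fragments between Fdps and its copies was not stated, so the level of Fdps is uncertain.

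Fdft1 (chr14:63145150-63179578, - strand), squalene synthase, was at 4.41 and 4.65 FPKM in vivo and at 15.1 and 14.6 FPKM in vitro at 1 week. At 2 weeks it was at 6.83 and 5.72 FPKM in vivo and at 9.90 and 14.3 FPKM in vitro, the widest in vitro pair among the members relative to its mean. It was lower in vivo by 1.69 on the log2 scale at 1 week (SE 0.17, limma adjusted p = 3.14e-04). The 2-week difference was -0.92 (SE 0.17, limma adjusted p = 0.00403), short of the fold threshold, and passed at -1.18 without replicate 1 of in vitro 2w. The 3′ end of Fdft1 overlaps Ctsb, encoded on the opposite strand, and 774 bases of transcript were shared. Ctsb was listed at 251 to 651 FPKM, far above Fdft1, and the strand setting of the counting was not stated, so the level of Fdft1 is uncertain. Ctsb was at 376 to 439 FPKM in vivo and 501 to 567 FPKM in vitro at 1 week. At 2 weeks it was at 251 to 282 FPKM in vivo and 563 to 651 FPKM in vitro, a wider gap. The part of Ctsb in the Fdft1 difference was not tested in either week.

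Sqle (chr15:59315077-59331192, + strand), squalene epoxidase, a rate-limiting step of the squalene-to-cholesterol branch, was at 2.63 and 3.49 FPKM in vivo and at 15.2 and 15.3 FPKM in vitro at 1 week. At 2 weeks it was at 3.79 and 3.59 FPKM in vivo and at 8.17 and 10.1 FPKM in vitro. It had the widest 1-week ratio of the members, with an in vitro mean 4.98 times the in vivo mean. It was lower in vivo by 2.29 on the log2 scale at 1 week (SE 0.15, limma adjusted p = 4.87e-05) and by 1.28 at 2 weeks (SE 0.15, limma adjusted p = 5.27e-04).

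Lss (chr10:76531588-76557138, + strand), lanosterol synthase, which closes the sterol rings, was at 0.792 and 0.705 FPKM in vivo and at 3.14 and 3.56 FPKM in vitro at 1 week. By 2 weeks Lss was at 0.600 and 0.630 FPKM in vivo and at 1.80 and 1.81 FPKM in vitro. The ratio of the means was 4.48 at 1 week and 2.94 at 2 weeks. It was lower in vivo by 2.02 on the log2 scale at 1 week (SE 0.16, limma adjusted p = 9.9e-05) and by 1.42 at 2 weeks (SE 0.16, limma adjusted p = 3.91e-04). The 2-week call rested on the pseudocount of 0.1 FPKM: with 1 FPKM added instead, the difference was -0.80 and missed the fold threshold.

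Insig1 (chr5:28071363-28078662, + strand), the sterol sensor of the list, was at 18.2 and 18.3 FPKM in vivo and at 52.9 and 52.4 FPKM in vitro at 1 week. By 2 weeks Insig1 was at 25.8 and 24.8 FPKM in vivo and at 61.1 and 72.4 FPKM in vitro. Insig1 was the member whose gap changed least in ratio among those lower at both times, from 2.88 to 2.64. It was lower in vivo than in vitro by 1.52 on the log2 scale at 1 week (SE 0.08, limma adjusted p = 2.14e-05) and by 1.39 at 2 weeks (SE 0.08, limma adjusted p = 2.4e-05).

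With both weeks fitted together and week as a covariate, 6 of the 8 members were lower in vivo (limma, the same thresholds), where 6.74% of all tested genes were lower and 8.63% higher. Their log2 differences ran from -1.02 for Hmgcs1 to -1.79 for Sqle. The call of Hmgcs1 was lost without replicate 1 of in vivo 1w (-0.94), replicate 1 of in vitro 1w (-0.98) or replicate 2 of in vitro 1w (-0.97). Mvd, at -0.97, was called without replicate 1 of in vitro 1w, in vivo 2w or in vitro 2w (-1.02, -1.10 and -1.03). For 7 of the 8 members, each of the 4 in vivo libraries lay under each of the 4 in vitro libraries, as for 20.0% of all tested genes, and Fdps was the exception. With no limit on the fold change, 7 of the 8 members were lower at 2 weeks at an adjusted p under 0.01, beside 17.3% of all tested genes. The 2-week count was 5 without replicate 1 of in vivo 2w or without replicate 1 of in vitro 2w, and 7 with the scaling between libraries undone.

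The rest of the pathway was read from a list of 21 synthesis enzymes, of which the 7 member enzymes are part. That list, too, was written with earlier results of these data known. All 21 passed the expression filter. Lower in vivo were 14 of 21 at 1 week, 7 at 2 weeks and 13 over both weeks, and none was higher in limma or its voom. At an unadjusted p under 0.05, 0 were higher at 1 week and 2 at 2 weeks (Ebp and Lbr). The median log2 fold change of the list was -1.31 at 1 week and -0.92 at 2 weeks.

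**Figure D2:**
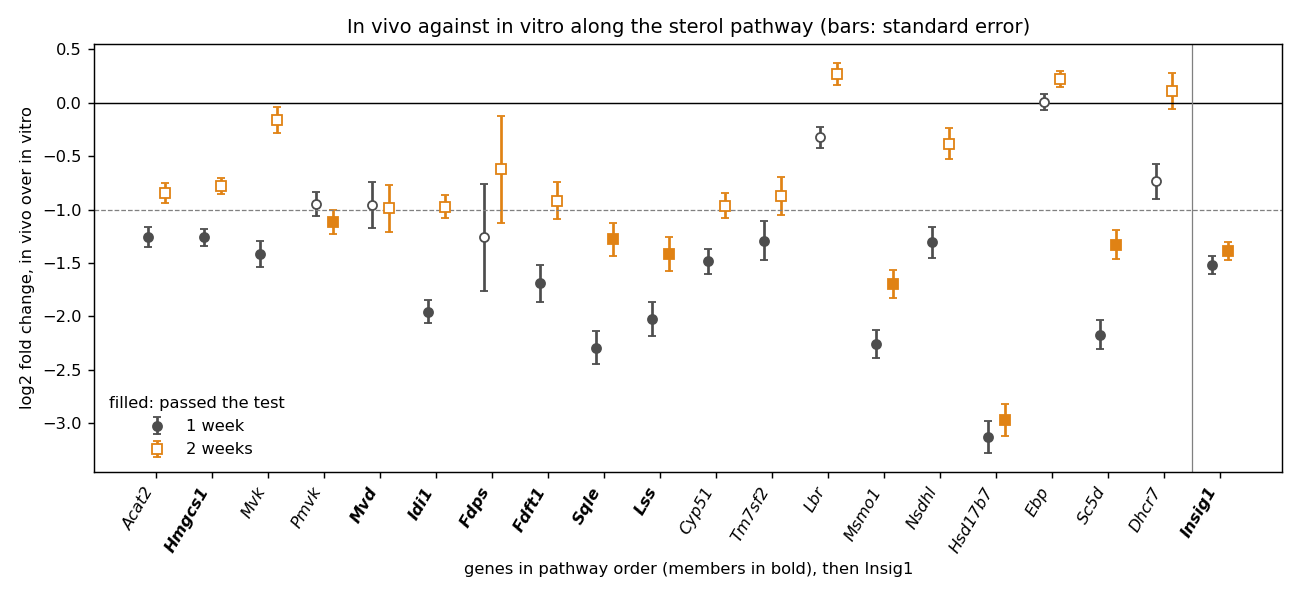
Log2 fold change of in vivo over in vitro (vertical axis) with its standard error, for enzymes of the synthesis list in pathway order and Insig1 on the horizontal axis, at 1 week (grey circles) and 2 weeks (orange squares), members in bold, filled where the test was passed, dashed line at the fold threshold. Hsd17b7 lies lowest in both weeks, at -3.13 and -2.97, and Ebp lies at 0.01 and 0.22.

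Among the other mevalonate enzymes, Acat2, which supplies acetoacetyl-CoA, was lower in vivo by 1.26 at 1 week and stood at -0.85 at 2 weeks. Mevalonate kinase, Mvk, was lower in vivo by 1.41 at 1 week and stood at -0.16 at 2 weeks. Phosphomevalonate kinase, Pmvk, stood at -0.95 at 1 week and was lower in vivo by 1.12 at 2 weeks.

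Of the 10 enzymes after lanosterol, 7 were lower in vivo at 1 week and 3 at 2 weeks. Hsd17b7, a 3-ketosteroid reductase of the pathway, had the largest difference of the whole list. Its libraries held 1.71 and 2.38 FPKM in vivo and 17.9 and 18.8 FPKM in vitro at 1 week, then 2.53 and 2.32 FPKM in vivo and 18.7 and 20.7 FPKM in vitro at 2 weeks, so that the in vitro mean was 8.996 and 8.12 times the in vivo mean. Hsd17b7 was lower in vivo by 3.13 at 1 week (SE 0.15, limma adjusted p = 1.19e-05) and by 2.97 at 2 weeks (SE 0.15, limma adjusted p = 1.17e-05). Msmo1, the methylsterol monooxygenase, and Sc5d, the sterol desaturase, were also lower in both weeks, Msmo1 by a log2 change of -2.26 and then -1.70, Sc5d by -2.172 and then -1.33. Cyp51 (-1.48), Nsdhl (-1.31) and Tm7sf2 (-1.29) were lower at 1 week and not called at 2 weeks (-0.96, -0.39 and -0.87). The Tm7sf2 call was lost without replicate 2 of in vivo 1w (limma adjusted p = 0.0102), replicate 1 of in vitro 1w (0.0151) or replicate 2 of in vitro 1w (0.0133). Ebp, Lbr and Dhcr7 were called in neither week, with Dhcr7 at -0.74 and then 0.11, and Lbr at -0.32 and then 0.27.

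None of the 6 genes that make and process SREBP was called in either week, in limma with the deposited scaling or in its voom, but Srebf2 was called lower at 1 week under other settings. An unadjusted p under 0.05, which 25.4% of all tested genes reached upward and 25.2% downward at 1 week (27.9% and 28.6% at 2 weeks), was found for 4 of them at 1 week (2 in each direction) and for 5 at 2 weeks, of which 3 were higher. Srebf2, which encodes the main activator of cholesterol synthesis, was at 13.3 and 16.8 FPKM in vivo and 29.1 and 29.6 FPKM in vitro at 1 week, with a log2 difference of -0.97 (SE 0.12, limma adjusted p = 7.46e-04), short of the fold threshold. It passed at 1 week without replicate 2 of in vivo 1w (-1.14), with quantile normalization (-1.04) and with the scaling between libraries undone (-1.31), and under the last setting it also passed over both weeks (-1.08). At 2 weeks Srebf2 was at 20.0 and 18.1 FPKM in vivo and 26.0 and 28.6 FPKM in vitro, with a difference of -0.52. Srebf1 stood at 0.11 and 0.44, and Scap at 0.32 and 0.22, all above 0, and with the scaling between libraries undone Srebf1 was at -0.23 at 1 week and Scap at -0.02 and -0.11. Insig2, the less sterol-responsive partner of Insig1, stood at 0.01 at 1 week and -0.38 at 2 weeks, and at -0.33 at 1 week with that scaling undone. The 8 genes that draw on farnesyl pyrophosphate for other products (prenylation, dolichol and ubiquinone) had 0 called in either week, in limma or its voom, with medians of 0.01 and 0.14. An unadjusted p under 0.05 was found for 1 of those 8 at 1 week, which was higher, and for 5 at 2 weeks, of which 4 were higher.

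**Figure D3:**
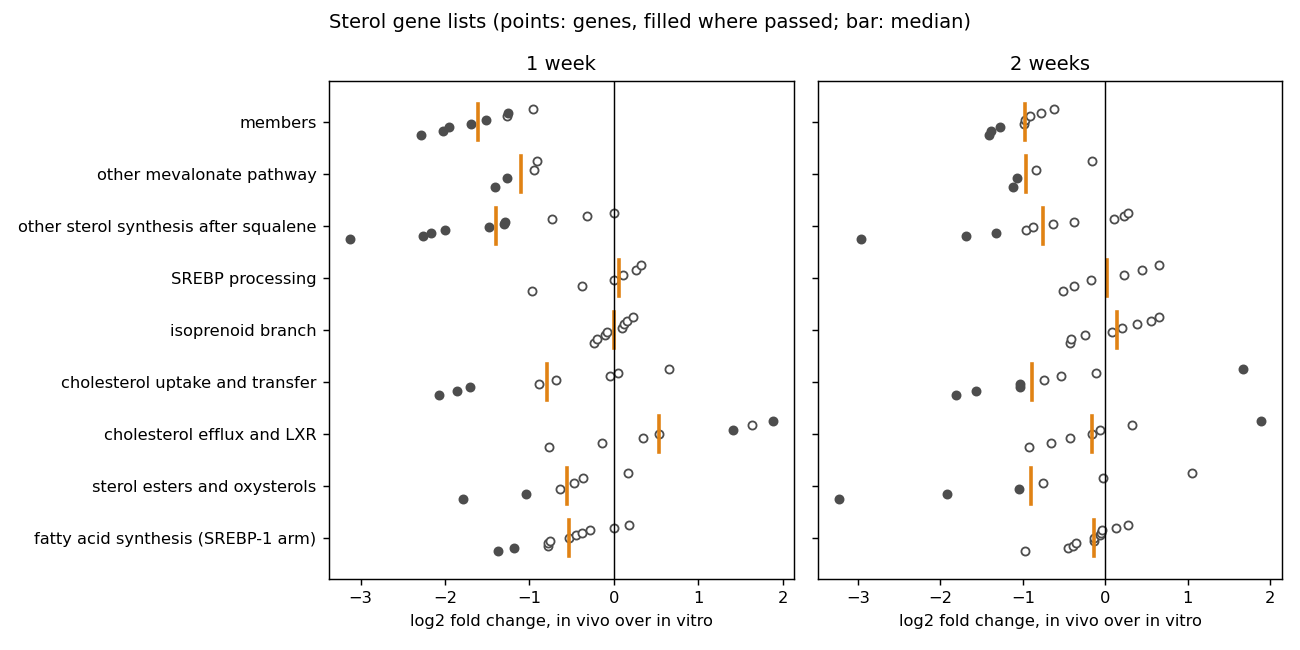
Log2 fold change of in vivo over in vitro (horizontal axis) for each gene of 9 sterol and lipid lists (rows), at 1 week and 2 weeks, with filled points for genes that passed the test and an orange bar at each list's median. The medians of the members (-1.61 and -0.98) lie left of those of the SREBP processing genes (0.06 and 0.02) in both panels.

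Genes of cholesterol uptake and transfer moved in both directions. Of the 9 listed, 8 passed the expression filter. At 1 week 3 were lower in vivo, and 4 were lower with 1 higher at 2 weeks. Stard4, a soluble sterol carrier, was lower by -1.86 and -1.81, and Vldlr, the VLDL receptor, by -2.07 and -1.57. Lipa, the lysosomal acid lipase, and Scarb1, the HDL receptor, were lower at 2 weeks, by log2 changes of -1.04 and -1.03. The call of Lipa was lost without replicate 2 of in vivo 2w (-0.94) or of in vitro 2w (-0.97), and that of Scarb1 without replicate 1 of in vivo 2w (-0.87), replicate 1 of in vitro 2w (-1.08, limma adjusted p = 0.0109) or replicate 2 of in vitro 2w (-0.99). Lrp1, a large endocytic receptor, was higher in vivo by 1.67 at 2 weeks, and its difference of 0.65 at 1 week was not called.

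The efflux list holds the genes of LXR itself, the sensor of sterol excess, and genes of cholesterol efflux or LXR response. It had 2 of 7 genes higher in vivo at 1 week (3 in voom) and 1 at 2 weeks, and none lower in limma or its voom. At an unadjusted p under 0.05, 1 was lower at 1 week and 4 at 2 weeks. Abcg1, a cholesterol exporter, was at 6.93 and 5.97 FPKM in vivo and 1.28 and 2.174 FPKM in vitro at 1 week, higher in vivo by 1.88 on the log2 scale (SE 0.27, limma adjusted p = 0.00165). That call was lost without replicate 1 (1.78, adjusted p = 0.0191) or replicate 2 (1.99, adjusted p = 0.0137) of in vivo 1w in limma, and the 2-week difference was -0.07. Mylip, a ubiquitin ligase induced by LXR, was at 15.8 and 15.6 FPKM in vivo and 5.37 and 6.34 FPKM in vitro at 1 week, higher in vivo by 1.41 on the log2 scale (SE 0.10, limma adjusted p = 5.73e-05). Abcg4 was higher at 2 weeks by 1.89 at 1.02 and 1.03 FPKM in vivo against 0.194 and 0.212 FPKM in vitro, having passed the expression filter only through the in vivo libraries, so that its count was not independent of its difference. The Abcg4 call was lost without any 1 of 6 of the 8 libraries (limma adjusted p from 0.0104 to 0.0284): both libraries of in vivo 1w, of in vivo 2w and of in vitro 2w.

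Of the 6 tested genes of sterol esters and oxysterols, 2 were lower in vivo at 1 week and 3 at 2 weeks. Ch25h, which makes 25-hydroxycholesterol, an oxysterol that restrains SREBP, was at 16.4 and 14.4 FPKM in vivo and 51.2 and 55.9 FPKM in vitro at 1 week. At 2 weeks Ch25h was at 11.4 and 10.3 FPKM in vivo and 102 and 104 FPKM in vitro, and the ratio of the means went from 3.48 to 9.47. Ch25h fell by 1.79 at 1 week and fell by 3.23 at 2 weeks (SE 0.09 each, limma adjusted p = 1.27e-05 and 9.62e-07). Nceh1, a cholesteryl ester hydrolase, stood at -1.04 and then -1.92, lower in both weeks, and the 1-week call was lost without replicate 2 of in vivo 1w (-0.96) or of in vitro 1w (-0.93). Soat1, which esterifies cholesterol, was lower in vivo by 1.05 at 2 weeks, a call lost without replicate 2 of in vivo 2w (-0.93). In the fatty acid list, which SREBP-1 drives, 2 of 11 genes were lower at 1 week (Scd1 by -1.18 and Fads2 by -1.38) and 0 were called at 2 weeks in limma or its voom. At an unadjusted p under 0.05, 9 were lower and 0 higher at 1 week, where 25.2% of all tested genes were lower. At 2 weeks 4 were lower and 0 higher at that limit, where 28.6% of all tested genes were lower. The list's median log2 fold change was -0.53 and then -0.14.

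Over time in culture, no member passed the test between 1 and 2 weeks in either direction, in limma or its voom, where 3.81% of all tested genes did. At an unadjusted p under 0.05, 4 were lower and 1 was higher, beside 17.4% and 20.8% of all tested genes. The estimates of the 7 enzymes were all below 0, from -0.20 for Mvd to -1.06 for Fdps, and that of Insig1 was 0.34. At an adjusted p under 0.05 with no limit on the fold change, 4 of 8 (Hmgcs1, Idi1, Sqle and Lss) were lower at 2 weeks, beside 11.0% of all tested genes. Sqle went from 15.2 and 15.3 FPKM to 8.17 and 10.1 FPKM (log2 difference -0.74, 95% interval -1.10 to -0.38), and Lss from 3.14 and 3.56 FPKM to 1.80 and 1.81 FPKM (-0.85, 95% interval -1.23 to -0.48). In the heart, no member passed either, in limma or its voom, where 2.18% of all tested genes did, and 2 were higher and 0 lower at an unadjusted p under 0.05, beside 16.3% and 15.3% of all tested genes. The heart estimates ran from -0.43 for Fdps to 0.47 for Insig1, with a median of 0.18 beside -0.55 in culture. In vivo, Idi1 stood at 0.24 (95% interval -0.01 to 0.50) and Sqle at 0.27 (95% interval -0.09 to 0.64). Without replicate 2 of in vivo 2w, the lower library of its pair for both genes, the heart estimates of Mvd and Fdps turned from -0.23 to 0.10 and from -0.43 to 0.13. Among the other listed genes, Mylip (1.39) and Apoe (1.02), a carrier of secreted cholesterol, rose in culture. The Apoe call was lost without any 1 of the 4 in vitro libraries, with differences from 0.945 to 1.104. Calls in culture over all tested genes also dropped in those fits, which leave 1 library in a group.

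**Figure D4:**
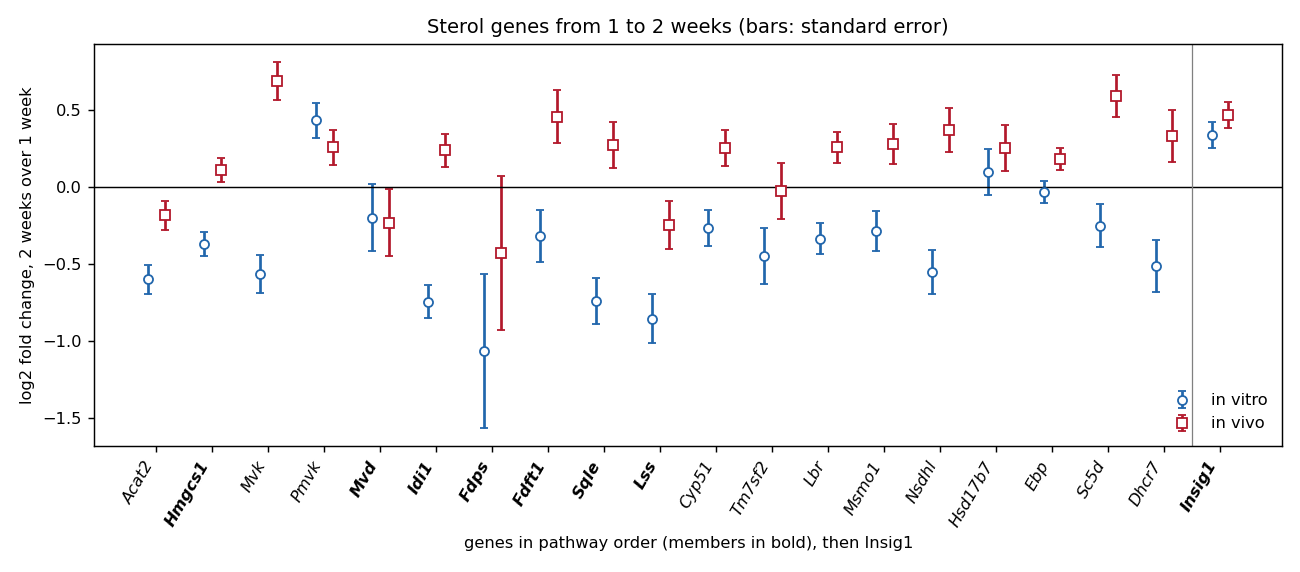
Log2 fold change of 2 weeks over 1 week (vertical axis) with its standard error, for enzymes of the synthesis list in pathway order and Insig1 (horizontal axis), in culture (blue circles) and in the heart (red squares), members in bold. No point passed the test. Insig1 lies above 0 in both, at 0.34 and 0.47, and Sqle lies at -0.74 in culture and 0.27 in the heart.

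The difference between weeks in the in vivo against in vitro change was tested directly. No member passed, where 1.73% of all tested genes did in either direction, and limma's voom called 1 of 8 (Sqle). At an unadjusted p under 0.05, 5 were higher and 0 lower, beside 12.1% and 14.9% of all tested genes, a positive sign meaning a smaller deficit in vivo at 2 weeks. At an adjusted p under 0.05 with no limit on the fold change, 3 of 8 were higher (Hmgcs1 at 0.48, Idi1 at 0.98 and Sqle at 1.01), beside 3.85% of all tested genes. For Insig1 the difference was 0.13 (95% interval -0.15 to 0.41) and for Mvd -0.03 (95% interval -0.77 to 0.70). The sign for Mvd turned without replicate 1 of in vitro 1w (0.09), replicate 2 of in vivo 2w (0.30) or replicate 2 of in vitro 2w (0.12). The 1-week and 2-week comparisons use different libraries, and both time comparisons share libraries with them.

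The 10 protein-coding genes outside the 8 members whose log2 values most resembled the members' mean over the 8 libraries, among 7103 with a mean of at least 5 FPKM, were Ahcyl1, Dnm2, Akap12, Me1, Rpa1, mt-Nd5, Tkt, Wsb2, G6pdx and Ccnd2, with Pearson r from 0.994 to 0.987. The 8 points fall into 2 conditions, so a high r mostly reflects a difference between them, and no p is given. Among them, 3 supply NADPH or sit in the pathway that does, namely Me1 (malic enzyme), G6pdx (glucose-6-phosphate dehydrogenase) and Tkt (transketolase). Me1 averaged 14.5 FPKM in vivo and 25.1 FPKM in vitro at 1 week. G6pdx averaged 13.2 and 25.3 FPKM. Of the 46 other sterol list genes that were ranked, 6 were among the first 100 (Me1, Cyp51, Fads2, Msmo1, Stard4 and Vldlr). Srebf2 ranked 302nd and Srebf1 5187th.

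Other gene groups separated the same libraries. Of 10 proliferation genes, 7 were lower in vivo at 1 week and 9 at 2 weeks, with summed levels of 35.8 to 37.5 FPKM in vivo against 79.5 to 86.0 FPKM in vitro at 1 week, and 11.2 to 13.2 against 35.2 to 36.9 FPKM at 2 weeks. From 1 to 2 weeks 8 of the 10 fell in vivo and 5 in vitro. Of 10 fibroblast markers, 6 were higher in vivo at 1 week and 7 at 2 weeks, and their sum was 13150 to 14010 FPKM in vivo and 3464 to 3630 FPKM in vitro at 1 week, then 11000 to 12390 and 2410 to 2410 FPKM at 2 weeks. Of 10 cardiomyocyte markers, 9 were tested, of which in vivo cells had 6 lower with 1 higher in the first sampling, then 7 lower with 2 higher, and their sum was 10.5 to 13.2 FPKM in vivo and 111 to 123 FPKM in vitro at 1 week, then 18.0 to 25.9 and 559 to 634 FPKM. Of 10 macrophage markers, in vivo cells had 1 higher with 1 lower in the first sampling, then 5 lower, with sums of 2572 to 2935 FPKM in vivo and 5063 to 5778 FPKM in vitro at 1 week, then 1871 to 2262 and 4659 to 5732 FPKM.

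Endothelial markers were higher in vivo, 6 of 7 at 1 week and 3 of 7 at 2 weeks, summing to 74.6 to 82.4 FPKM in vivo and 20.1 to 21.1 FPKM in vitro at 1 week, then 66.0 to 72.6 and 40.4 to 47.8 FPKM. Of 6 mural markers, in vivo cells had 4 higher with 2 lower in the first sampling, then 2 higher with 3 lower, with sums of 113 to 125 FPKM in vivo and 92.1 to 105 FPKM in vitro at 1 week, then 103 to 119 and 135 to 146 FPKM. Lymphocyte markers summed to at most 1.66 FPKM in any library, 1 of 6 was tested and it was not called. Cd3d was at 0 in both in vitro 1w libraries, Ms4a1 in both in vivo 2w libraries, and Cd3e, Cd3d and Ms4a1 in both in vitro 2w libraries. Of 5 adipocyte markers, Fabp4, which endothelial cells and macrophages also express, was tested and higher in vivo in both weeks. Adipoq and Lep were at 0 in both libraries of every group, Cidec in every group but in vitro 2w, and Plin1 in both in vivo groups. The summed adipocyte list stood at 16.2 to 18.9 FPKM in vivo and 2.79 to 3.02 FPKM in vitro at 1 week, then 13.3 to 17.0 and 7.45 to 7.60 FPKM. The part of these groups in the sterol gene differences was not tested, and serum-containing medium, inhibitors, host drugs and heart digestion cannot be told apart from the condition.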

How the data were processed

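RNA from sorted eGFP+ MICFs was sequenced in 8 libraries, 2 for each condition and week. Per the submitters' processing notes, reads passed through CASAVA and were mapped with HISAT2 2.0.5 to mm10. The counting tool and the strand setting are not given in the sources used here. The deposited table holds FPKM per gene, scaled between libraries by the authors: FPKM times gene length gave whole fragments (within 0.01) for 100% of values in every library, and the library sizes behind the FPKM were 0.863 to 1.15 times the recovered fragments on genes. Depth was 12304242 to 14546904 fragments per library.

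Genes at 0.5 FPKM or more in at least 2 libraries (15708 of 54532) were tested with limma 3.58.1 (R 4.3.3) on log2(FPKM + 0.1), with moderated variances and an intensity trend. One fit of all 8 libraries in 4 groups gave the within-week, time and interaction comparisons, and a fit with week as a covariate gave both weeks together. Tests are two-sided, with Benjamini-Hochberg adjustment over all tested genes. Changed means an adjusted p below 0.01 with a log2 difference beyond 1 in either direction. The authors' methods name DESeq2 with a p limit of 0.01 and a fold limit of 2 for genes that rose, and do not say whether that p was adjusted. DESeq2 was not run here: limma was chosen for the deposited FPKM, and voom was the alternative on recovered fragments. Fold changes are on the log2(FPKM + 0.1) scale, which understates those of low genes, while ratios of means use FPKM. The script was tested on simulated data. The chi-square per gene between replicates (4.25 to 9.22) was above sampling noise, so no library was a duplicate.

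The members and gene lists were chosen with earlier results of these data known. Named were all members, Srebf1, Srebf2, Scap, Insig2 and each other sterol list gene changed in the comparison described. Some genes that this rule names are not reported here. They, Mbtps1, Mbtps2 and other list genes enter only counts and medians. Genes sharing sequence with a member were sought with blastn 2.17.0 at 95% identity over 150 bases in GENCODE vM21 transcripts. Same-numbered replicates did not deviate together (r of their deviations from -0.0477 to -0.0107). Alternatives covered the pseudocount (0.01 and 1), the filter, the scaling, the trend, the genes and libraries in the fit, voom on the recovered fragments, the threshold, a replicate block and each library left out.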

Additional observations from a re-analysis of the deposited data

Results flagged for a closer look

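Among all tested sterol list genes, 3 had an in vivo against in vitro change that differed between the weeks by the interaction test (limma, adjusted p below 0.01, a log2 difference beyond 1 in either direction). The change of Mvk, mevalonate kinase, was smaller at 2 weeks by 1.25 on the log2 scale (1.255, limma adjusted p = 0.00888). Its libraries held 3.83 and 4.25 FPKM in vivo and 11.9 and 9.99 FPKM in vitro at 1 week, then 6.56 and 6.57 FPKM in vivo and 6.73 and 8.0 FPKM in vitro. Mylip, the LXR-induced ubiquitin ligase, had a difference of -1.09 (limma adjusted p = 0.00663), and its in vitro libraries went from 5.37 and 6.34 FPKM to 15.2 and 15.6 FPKM while its in vivo libraries went from 15.8 and 15.6 FPKM to 20.4 and 18.1 FPKM. Ch25h, the cholesterol 25-hydroxylase, had a difference of -1.44 (limma adjusted p = 0.00338), and its in vitro libraries went from 51.2 and 55.9 FPKM to 102 and 104 FPKM. All 3 calls were lost when any 1 of the 8 libraries was left out, which leaves 1 library in a group. Calls over all tested genes also dropped in each of those fits, so the loss was not particular to these 3 genes. The differences stayed between 1.13 and 1.38 for Mvk, -1.21 and -0.98 for Mylip, and -1.53 and -1.35 for Ch25h. Groups of 2 libraries were too small to look for single outlying libraries.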

How the results depend on the processing

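At 1 week, the 6 members lower in vivo became 7 without the scaling between libraries and at the looser threshold (adjusted p under 0.05 with no fold limit) and were 6 under the other alternatives run, leaving out any 1 library included, and 13 to 14 of the 21 synthesis list enzymes were lower when a library was left out. Of the 15708 tested genes, 796 were lower at 1 week in the main fit, 1558 without the scaling and 3240 at the looser threshold. At 2 weeks these counts were 1265, 2087 and 3963. Among the members, Fdps rested on the fewest fragments, at 2 to 40 per library. Outside the members, Abcg4 rested on 5 to 60 fragments and Tm7sf2 on 49 to 188. At 2 weeks, the 3 lower members became 7 without the scaling between libraries and 7 at the looser threshold, and 3 to 5 without 1 library. The 7 lower list enzymes became 4 with a pseudocount of 1, 14 without the scaling and 15 (with 1 higher) at the looser threshold, and 6 to 10 without 1 library. Over both weeks, 5 to 7 members and 11 to 15 list enzymes were lower without 1 library. At the looser threshold, culture showed 4 members lower and 1 higher and 9 list enzymes lower and 1 higher over time, against 0 of each. The heart showed 1 member and 3 list enzymes higher, against 0. Of all tested genes, 1730 were lower and 2212 higher in culture at that threshold, and 1127 lower and 1349 higher in the heart. The difference between weeks called 0 members, but 1 with quantile normalization (Idi1), 1 with voom and 3 at the looser threshold. For that difference, 90 of all tested genes were higher in the main fit, and 108, 143 and 605 under these settings in turn. Its 1 list enzyme (Mvk) became 0 with no filter and 0 with no intensity trend. The call was also lost without any 1 library, where calls over all genes dropped too. The count of list enzymes became 2 with a pseudocount of 1, 2 with a mean of at least 1 FPKM, 2 without the scaling, 2 with protein-coding genes only, 3 with quantile normalization, 3 with voom and 8 at the looser threshold. Fitted with a block for the replicate number, that count was 0 (27 of all genes in place of 271), and 6 members at 1 week, 3 at 2 weeks and 0 between weeks were called. The block changed 4 calls of named genes: Abcg4 at 2 weeks and the differences between weeks of Mvk, Mylip and Ch25h were lost. With a pseudocount of 1, Tm7sf2 and Nceh1 at 1 week, Lss, Pmvk, Scarb1, Abcg4 and Soat1 at 2 weeks, Hmgcs1, Acat2, Pmvk, Tm7sf2 and Abcg4 over both weeks and the Mylip difference between weeks were also lost. Srebf2 at 1 week became a call without the scaling (-1.31), with quantile normalization (-1.04) and without replicate 2 of in vivo 1w (-1.14). Signs turned for genes that were not called. Without the scaling, Srebf1 was at -0.23 at 1 week and -0.057 over both weeks, Scap at -0.023, -0.11 and -0.065 at 1 week, 2 weeks and both, and Insig2 at -0.33 at 1 week. With quantile normalization, Insig2 was at -0.028 at 1 week and the Mvd difference between weeks at 0.027. Without 1 library, the Mvd difference ran from -0.36 to 0.30, the heart time course of Mvd from -0.56 to 0.10, that of Fdps from -0.98 to 0.13, and Insig2 at 1 week from -0.01 to 0.025. The cause was not tested. Over all genes, calls over time were 0 when only the libraries of the 2 groups were fitted (599 in culture and 342 in the heart in the full fit), and those between weeks ranged from 71 to 473 at the main threshold over the alternatives with all libraries and no block.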
